A study of Mus musculus with 5 samples.

Results

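The mitochondrial ribosomal proteins were taken as every protein-coding gene whose GENCODE M21 symbol starts with Mrpl (large subunit) or Mrps (small subunit) followed by a number. This gave 78 genes, 49 of the large and 29 of the small subunit, on 17 chromosomes, among the 55335 genes of the count table. Primary lung fibroblasts isolated from mice and grown in culture were compared after 24 h with TGF-β1 at 5 ng/mL (3 libraries) or with vehicle (2 libraries). TGF-β1 is a cytokine under which fibroblasts in culture take on features of myofibroblasts, the contractile, matrix-producing cells of scars. The labels name no strain, sex, age or passage and no genetic change in either group. The libraries are called independent biological replicates, but whether each had its own mouse or its own dish is not said. A p-value here thus speaks of the spread among these 5 libraries, part of which may be technical.

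The mitochondrial ribosome, or mitoribosome, translates the few mRNAs encoded by mitochondrial DNA, which specify core subunits of the respiratory chain and ATP synthase. Its rRNAs come from mitochondrial DNA, whereas all of its proteins are encoded in the nucleus, made in the cytosol and imported. Some of these proteins have homologues in bacterial ribosomes and others are specific to mitochondria. NRF1, the ETS factor GABP and YY1 are known regulators of nuclear genes for mitochondrial proteins, and MYC binds the E-box.

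Promoter sequence was examined because members on many chromosomes were to be compared as a group. RefSeq (GRCm38) windows of 300 bp, from 250 bp before to 50 bp after the start site, were matched by symbol for 69 of the 78 members and searched on both strands for 4 motifs. The NRF1-like motif (GCGC, any base, then TGCGC) was present in 13 of the 69 (18.8%, against 10.96% of 10642 tested protein-coding genes and 5.19% of all 27025 promoters). The ETS motif CCGGAAG was present in 26 (37.7%, against 19.2% and 9.93%). The YY1-like AAGATGGCG was present in 8 (11.6%, against 3.36% and 1.64%), and the E-box CACGTG in 5 (7.25%, against 11.4% and 8.09%). Matches to different motifs overlapped in 0 members. The 250 bp before the start of 4 members are shown as an example of each motif, with the match in capitals as it reads on the gene's own strand (the + strand for all 4). Mrpl12 (chr11:120484387-120484636) holds the NRF1-like motif 81 to 72 bp before the start, and Mrpl52 (chr14:54426659-54426908) the ETS motif, reversed, 47 to 41 bp before it. Mrpl20 (chr4:155802628-155802877) holds the E-box 33 to 28 bp before the start. Mrpl36 (chr13:73330759-73331008) holds the E-box at 43 to 38 bp and the YY1-like motif, reversed, at 31 to 23 bp. The RefSeq start of Mrpl36 lies inside its GENCODE gene (73328513 to 73332178), so its window is not upstream of the GENCODE start. That of Mrpl12 lies slightly inside (GENCODE start 120484613). Distances between gene starts below use the GENCODE start.
Mrpl12: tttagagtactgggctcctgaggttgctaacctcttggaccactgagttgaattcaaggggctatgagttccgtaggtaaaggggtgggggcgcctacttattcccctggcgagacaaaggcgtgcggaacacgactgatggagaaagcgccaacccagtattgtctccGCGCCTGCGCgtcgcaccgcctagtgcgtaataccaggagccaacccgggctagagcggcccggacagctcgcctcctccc
Mrpl52: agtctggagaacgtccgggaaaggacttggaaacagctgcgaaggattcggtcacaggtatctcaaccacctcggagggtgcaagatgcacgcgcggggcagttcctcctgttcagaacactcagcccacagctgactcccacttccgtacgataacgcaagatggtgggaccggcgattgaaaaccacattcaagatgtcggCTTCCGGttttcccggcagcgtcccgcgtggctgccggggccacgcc
Mrpl20: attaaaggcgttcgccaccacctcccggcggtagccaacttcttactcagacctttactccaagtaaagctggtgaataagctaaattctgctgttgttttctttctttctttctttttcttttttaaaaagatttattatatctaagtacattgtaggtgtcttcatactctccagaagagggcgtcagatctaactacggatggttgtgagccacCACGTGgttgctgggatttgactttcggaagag
Mrpl36: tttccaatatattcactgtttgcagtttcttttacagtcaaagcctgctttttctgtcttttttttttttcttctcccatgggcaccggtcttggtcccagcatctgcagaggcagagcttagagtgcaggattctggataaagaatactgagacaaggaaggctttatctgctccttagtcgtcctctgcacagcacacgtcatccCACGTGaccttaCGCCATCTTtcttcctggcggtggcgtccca

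Libraries held 34283288 to 43163967 counts, of which 58260 to 76133 fell on the members (0.170% and 0.173% in the controls, 0.180%, 0.176% and 0.173% with TGF-β1). TGF-β1 library 3 stood apart from the other TGF-β1 libraries. The chi-square per degree of freedom of its counts was 8.47 against library 1 and 8.41 against library 2, whereas it was 4.06 between libraries 1 and 2 and 5.13 between the controls. Levels are given as CPM, the counts scaled to library size, with TMM factors that set library sizes by the bulk of genes. All 8 fibroblast markers (Col1a1, Col1a2, Col3a1, Pdgfra, Pdgfrb, Thy1, Dcn and Vim) were detected, with a summed level of 26139 to 27147 CPM in controls and 33270 to 33535 CPM with TGF-β1. They did not move together, as 4 were higher and 4 lower. The largest rise was in Col1a1 (log2 fold change 0.69) and the largest falls in Pdgfra (-2.02) and Dcn (-1.90). Most of the sum comes from Col1a1 and Col1a2. Markers of other cell types were also detected. The 8 mesothelial markers summed to 1386 to 1471 CPM in controls and 168 to 187 CPM with TGF-β1 (8 of 8 lower), and the 7 macrophage markers to 2332 to 2405 CPM and 1403 to 1440 CPM (6 lower, 1 higher). The 6 smooth muscle and pericyte markers summed to 2755 to 2853 CPM and 2313 to 2358 CPM (2 higher, 2 lower). The epithelial Nkx2-1, Sftpc, Scgb1a1 and Sftpb were at 0 in every library and the other epithelial markers summed to at most 4.10 CPM, while the 5 endothelial markers summed to at most 3.42 CPM. In such bulk cultures fewer cells of a type and less RNA per cell cannot be told apart, and the part of these markers in the results below was not tested.

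A minority of mitoribosomal transcripts rose with TGF-β1, by small amounts and in both subunits. Among the 78 members, all of which passed the low-count filter, 23 were higher at an adjusted p under 0.05 by edgeR's quasi-likelihood test, 0 were lower and 55 did not pass. At an unadjusted p under 0.05, 29 were higher and 2 lower. The share of all 16380 genes tested that was called was 21.3% higher and 23.2% lower, and the members' shares were 29.5% and 0%. Over the 13703 protein-coding genes tested, a closer background, the shares were 23.4% and 26.25%. The rises were small. The 23 ranged from 1.13-fold to 1.43-fold with a median of 1.21-fold, and 0 reached 1.5-fold, compared with 970 of the 3488 genes called higher. The fitted log2 fold change was above 0 in 67 of 78 members (85.9%, against 50.01% of all genes tested), and its median was 0.13, against 0.00 for all genes and -0.015 for protein-coding genes. Its spread over members was narrow, with an SD of 0.16 against 0.90 over all genes, and the median SE of a member was 0.081. In 39 members every TGF-β1 library lay above both controls (background 31.6%), in 4 every TGF-β1 library lay below both (background 33.0%), and in 35 the groups overlapped.

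**Figure D1:**
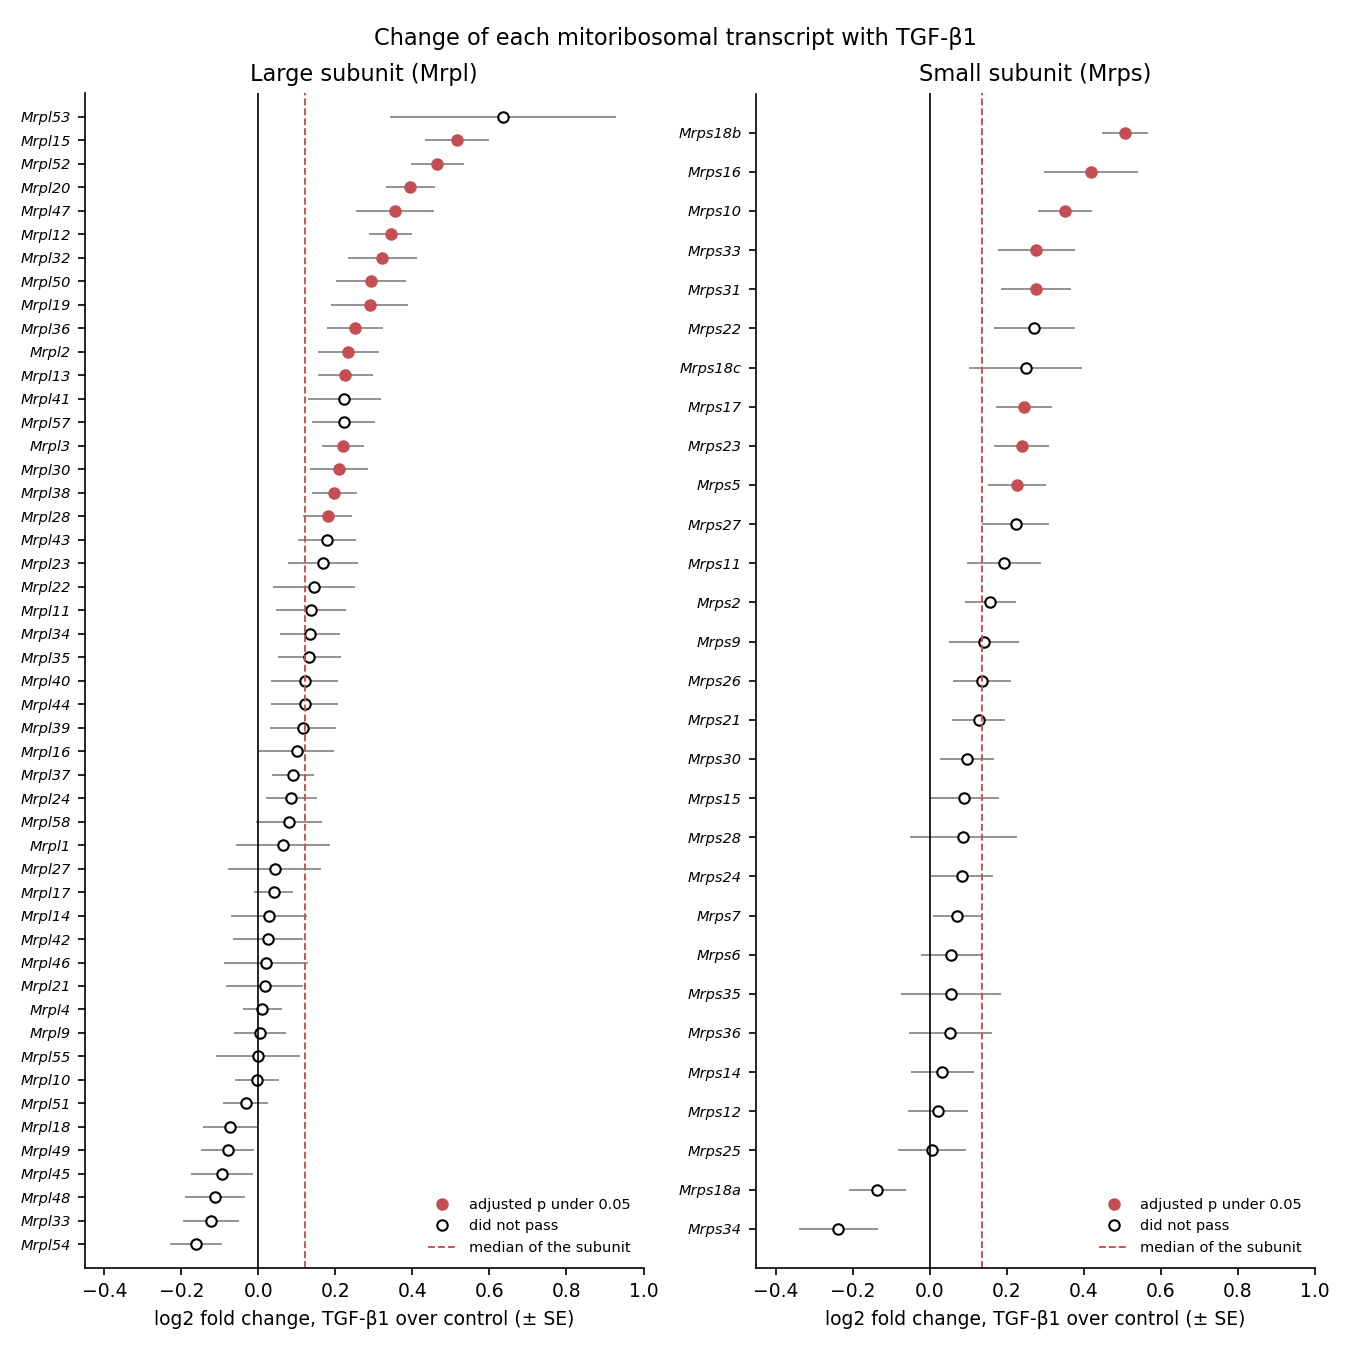
Log2 fold change of each member, TGF-β1 over control, with its SE (horizontal axis), for 49 large subunit genes (left) and 29 small subunit genes (right) ordered by size. Filled points passed an adjusted p of 0.05 (15 and 8 genes), open points did not, and dashed lines mark the subunit medians of 0.12 and 0.14; most points lie to the right of 0 and none past 0.63.

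The number of calls depended on the libraries and on the scaling. Without TGF-β1 library 1, 14 members were higher and 0 lower, where 3131 of 16189 genes tested were higher and 3432 lower. Without library 2, 13 were higher and 0 lower, where 3098 of 16157 genes were higher and 3385 lower. In both fits the share called higher was smaller among members than among all genes. Without library 3, 21 were higher and 1 lower, where 3623 of 16173 genes were higher and 3881 lower. Without either control the median log2 fold change of members was 0.14. With no low-count filter 13 members were higher and 0 lower, where 3071 of 25671 genes were higher and 3427 lower. Scaling by library totals alone moved the median of all genes by -0.10 and the split of all calls from 47.9% higher to 32.1% higher. Under it 6 members were higher and 4 lower (Mrpl33, Mrpl54, Mrps18a and Mrps34). Of all 16380 genes 2325 were then higher and 4921 lower, so both shares were smaller among members. The member median was 0.03, so that members lay about as far above the median of all genes as under TMM. The 6 that were called higher under each of the 13 alternatives run were Mrpl12, Mrpl15, Mrpl20, Mrpl52, Mrps10 and Mrps18b.

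**Figure D2:**
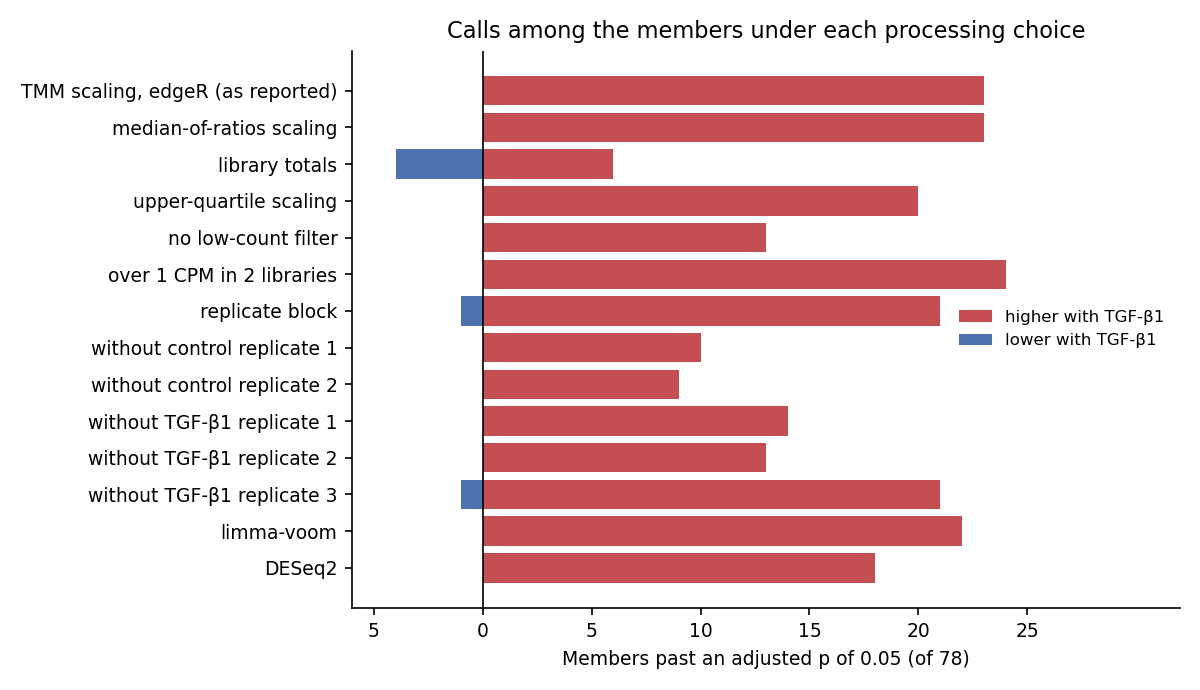
Number of the 78 members past an adjusted p of 0.05 (horizontal axis, higher to the right, lower to the left) under each processing choice (vertical axis). Higher calls run from 6 with library totals to 24 with a filter of 1 CPM, and lower calls appear with library totals (4), with the replicate block (1) and without TGF-β1 replicate 3 (1).

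In the large subunit 15 of 49 members were higher (30.6%, against 21.3% of all genes tested) and 0 lower (against 23.2%). Of the 6 with the largest called rises 5 have homologues in bacterial ribosomes, as do 48 of all 78 members. Mrpl15, the homologue of the bacterial ribosomal protein of the same number (chromosome 1, 4773206 to 4785739, GRCm38), was at 21.2 and 23.0 CPM in controls and 34.7, 29.8 and 30.6 CPM with TGF-β1. All TGF-β1 libraries were above both controls, with a clear gap (log2 fold change 0.52, SE 0.083, edgeR adjusted p = 0.00078). Mrpl52, a protein specific to mitochondrial ribosomes (chromosome 14, 54426909 to 54429756), was at 35.1 and 37.7 CPM and 54.1, 49.5 and 47.3 CPM, without overlap (log2 fold change 0.47, SE 0.069, edgeR adjusted p = 0.000482). Mrpl20, whose bacterial homologue binds rRNA early in large subunit assembly (chromosome 4, 155802878 to 155809975), stood at 32.6 and 33.7 CPM in controls and 46.1, 44.0 and 40.7 CPM with TGF-β1. Again the groups were apart (log2 fold change 0.39, SE 0.064, edgeR adjusted p = 0.000872). Mrpl12, of the stalk that recruits translation factors and also known to bind the mitochondrial RNA polymerase (chromosome 11, 120484613 to 120489065), measured 29.5 and 31.2 CPM and 38.7, 37.9 and 38.8 CPM. Its TGF-β1 libraries lay close together and above both controls (log2 fold change 0.34, SE 0.055, edgeR adjusted p = 0.000833).

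The other named rises of the large subunit were less stable. Mrpl47, a homologue of a bacterial protein near the exit of the nascent chain, was at 11.8 and 12.0 CPM in controls and 16.7, 14.97 and 14.0 CPM with TGF-β1 (log2 fold change 0.35, SE 0.10, edgeR adjusted p = 0.0181). Its TGF-β1 libraries were all above the controls, but its exons overlap those of Actl6a and Ndufb5 on the opposite strand, each counted at over 2 times its level, so its counts are uncertain; over the alternatives its adjusted p reached 0.098. Mrpl32, which must be cleaved by the m-AAA protease before it joins the ribosome, was at 12.7 and 13.3 CPM and 17.3, 16.2 and 15.3 CPM, also without overlap (log2 fold change 0.32, SE 0.090, edgeR adjusted p = 0.0162). It has near-identical pseudogenes, both listed at 0 counts, and its adjusted p reached 0.101 over the alternatives. The 9 further higher members were Mrpl50, Mrpl19, Mrpl36, Mrpl2, Mrpl13, Mrpl3, Mrpl30, Mrpl38 and Mrpl28, with log2 fold changes from 0.29 down to 0.18. Mrpl2 and Mrpl3 have homologues near the peptidyl transferase centre. The calls of these 9 were lost when scaling by library totals, and in other alternatives too. Of the 13 alternatives the call held in 11 for Mrpl36, 10 for Mrpl3, 9 for Mrpl38, 8 for Mrpl50 and 7 for Mrpl19. It held in 6 for Mrpl2, 6 for Mrpl13, 4 for Mrpl30 and 3 for Mrpl28.

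**Figure D3:**
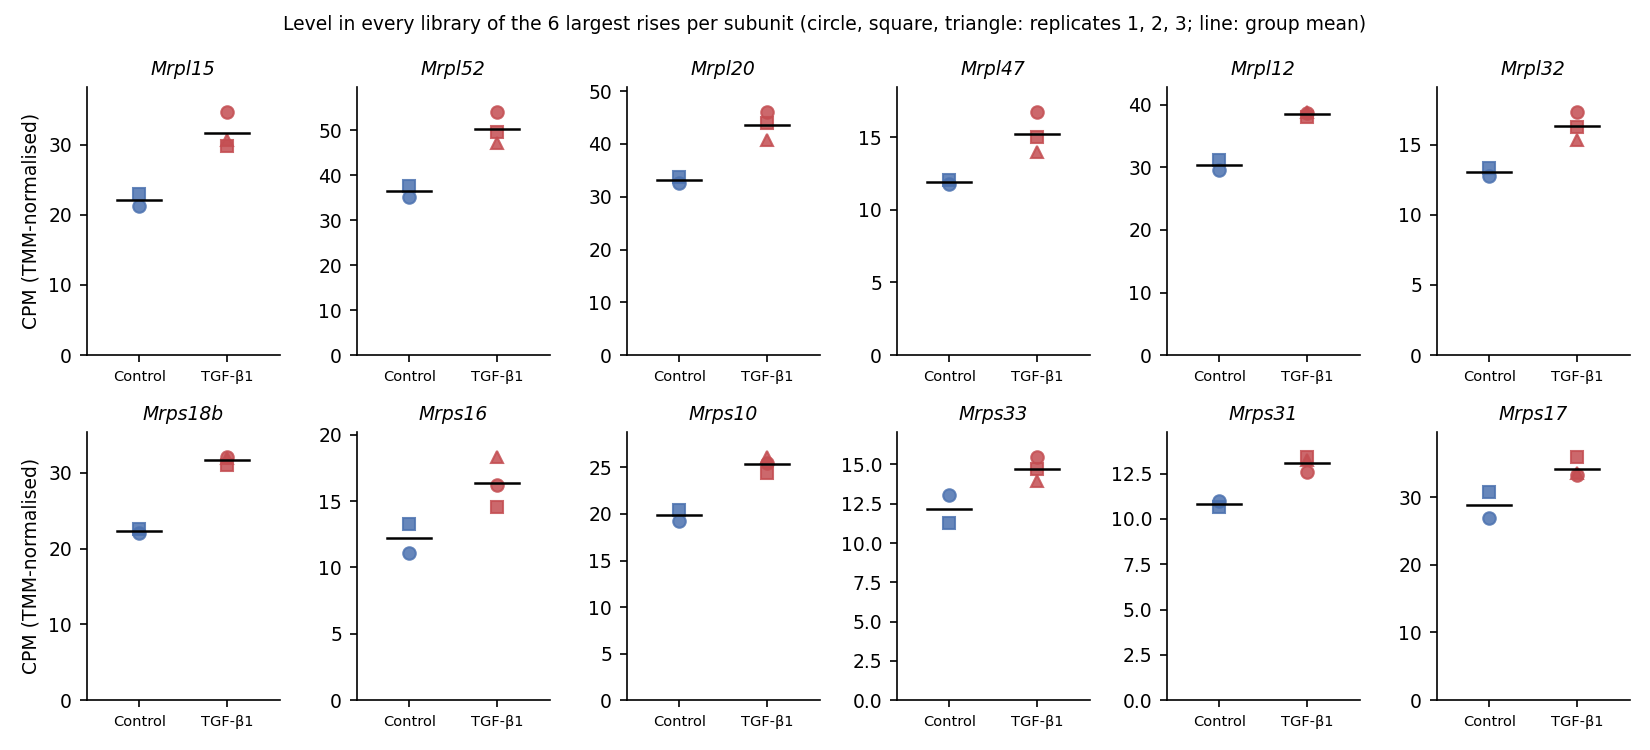
TMM-scaled CPM (vertical axis, from 0) in each of the 2 control and 3 TGF-β1 libraries for the 6 largest rises past the threshold in the large subunit (top row) and in the small subunit (bottom row). Symbols mark replicates and black lines group means; in all 12 panels every TGF-β1 library lies above both controls, by a wide gap in Mrpl12 and Mrps18b and a narrow one in Mrps33 and Mrps16.

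In the small subunit 8 of 29 members were higher (27.6%, against 21.3% of all genes tested) and 0 lower (against 23.2%). The largest rise was in Mrps18b, 1 of 3 mammalian homologues of a single bacterial protein (chromosome 17, 35910379 to 35916389), at 22.1 and 22.5 CPM in controls and 32.1, 31.0 and 31.96 CPM with TGF-β1. Libraries within each group were nearly equal and the groups were far apart (log2 fold change 0.51, SE 0.060, edgeR adjusted p = 0.000121). It has a processed pseudogene, Gm13552, 99.8% identical over 417 bp, with a mean of 80.6 counts against 1113 for Mrps18b. Mrps10, a homologue of a bacterial protein of the small subunit head (chromosome 17, 47368887 to 47381417), was at 19.2 and 20.4 CPM and 25.5, 24.4 and 26.1 CPM, without overlap (log2 fold change 0.35, SE 0.070, edgeR adjusted p = 0.00295); its pseudogene AC154457.3 had a mean of 15.8 counts against 921. Mrps16, also conserved from bacteria, ranged more widely, at 11.1 and 13.3 CPM in controls and 16.2, 14.5 and 18.3 CPM with TGF-β1 (log2 fold change 0.42, SE 0.12, edgeR adjusted p = 0.0202). Its lowest TGF-β1 library was just above its higher control, and its adjusted p reached 0.171 over the alternatives.

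The remaining small subunit rises were closer to the threshold. Mrps33, specific to mitochondria, was at 13.1 and 11.3 CPM in controls and 15.5, 14.7 and 14.0 CPM with TGF-β1 (log2 fold change 0.28, SE 0.10, edgeR adjusted p = 0.0498), and it has a near-identical pseudogene, Gm5776, with a mean of 97.4 counts against 544. Mrps31, also specific to mitochondria, was at 11.01 and 10.6 CPM and 12.6, 13.4 and 13.3 CPM (log2 fold change 0.28, SE 0.091, edgeR adjusted p = 0.0349). Mrps17, conserved from bacteria, was at 27.0 and 30.7 CPM and 33.2, 35.9 and 33.5 CPM (log2 fold change 0.25, SE 0.073, edgeR adjusted p = 0.0214). In all 3 the groups did not overlap, but the gaps were narrow, and the calls were lost in at least 1 alternative, with adjusted p up to 0.309, 0.155 and 0.182. Of the 13 alternatives the call held in 6 for Mrps33, 4 for Mrps31 and 10 for Mrps17. Without control 2 the log2 fold change of Mrps33 was 0.17, and without control 1 that of Mrps17 was 0.16. The other 2 higher members were Mrps23 (log2 fold change 0.24) and Mrps5 (0.23).

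The 3 mammalian homologues of that single bacterial protein differed in their values. Mrps18b rose, as above. Mrps18c was at 8.57 and 11.01 CPM in controls and 13.3, 10.2 and 11.5 CPM with TGF-β1, with overlapping groups (log2 fold change 0.25, SE 0.15, edgeR adjusted p = 0.205). Its log2 fold change was 0.084 without control 1, 0.45 without control 2 and 0.15 without TGF-β1 library 1. Mrps18a, which structures place in the large subunit in spite of its symbol, was at 19.4 and 18.7 CPM and 17.0, 17.6 and 17.4 CPM. All of its TGF-β1 libraries were slightly below both controls (log2 fold change -0.14, SE 0.073, edgeR adjusted p = 0.167), and it was called lower when scaled by library totals. The differences between the 3 genes were not tested. Mrps30, likewise a large subunit protein by structure, was at 22.0 and 23.7 CPM and 24.5, 25.3 and 23.5 CPM, with overlap (log2 fold change 0.096, SE 0.070, edgeR adjusted p = 0.306). Mrps36, now regarded as a subunit of the α-ketoglutarate dehydrogenase complex, was at 11.3 and 10.8 CPM and 12.7, 10.7 and 11.1 CPM, also with overlap (log2 fold change 0.053, SE 0.11, edgeR adjusted p = 0.724), and it has 5 near-identical pseudogenes.

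No member was called lower, but 2 had values below the controls at an unadjusted p under 0.05, and both are singled out after their values were seen. Mrps34 was at 23.7 and 24.0 CPM in controls and 21.7, 17.3 and 21.7 CPM with TGF-β1. Its TGF-β1 libraries were all below the controls, library 2 by the most (log2 fold change -0.24, SE 0.10, edgeR adjusted p = 0.0893), and it was called lower when TGF-β1 library 3 was left out. Without library 2 the log2 fold change was -0.13 and did not pass. Its exons share 1309 bp with Mapk8ip3 on the opposite strand, which was counted at 4.58 times its level, so it is uncertain. Mrpl54 was at 21.7 and 21.9 CPM and 19.7, 19.4 and 19.3 CPM, with TGF-β1 libraries close together and below both controls (log2 fold change -0.16, SE 0.068, edgeR adjusted p = 0.0798), and it overlaps no other gene counted at over 0.1 of its level.

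The largest fitted change of any member was in Mrpl53 (chromosome 6, 83109040 to 83109939), which did not pass the test and shares exons with another gene. Mrpl53 had 9.35 and 9.20 CPM in controls and 16.8, 18.5 and 7.91 CPM with TGF-β1, so TGF-β1 libraries 1 and 2 were far above the controls and library 3 was below them (log2 fold change 0.63, SE 0.29, edgeR adjusted p = 0.111). Without library 3 it was called higher, and over the alternatives its adjusted p ran from 1.75e-05 to 0.313. Gm42688, a protein-coding gene model that shares 695 bp of exon with it on the same strand, showed the opposite pattern. Gm42688 had 13.3 and 13.5 CPM in controls and 7.66, 8.97 and 19.7 CPM with TGF-β1. Mrpl53 took 41.3% and 40.5% of the counts of the pair in controls and 68.6%, 67.3% and 28.7% with TGF-β1. The summed counts were steadier, at 22.7 and 22.7 CPM in controls and 24.4, 27.4 and 27.6 CPM with TGF-β1, without overlap (log2 fold change 0.22, SE 0.075, edgeR adjusted p = 0.0373). This sum was tried after seeing the data. The same was done for Mrps6 and Mrps24, which share exons with Slc5a3 and Urgcp on the same strand. Mrps6 alone had a log2 fold change of 0.06 and its sum with Slc5a3 had 0.21 (SE 0.074, edgeR adjusted p = 0.0431), where Slc5a3 alone had 0.33; the sum of Mrps24 and Urgcp had -0.038 (SE 0.058, edgeR adjusted p = 0.636).

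**Figure D4:**
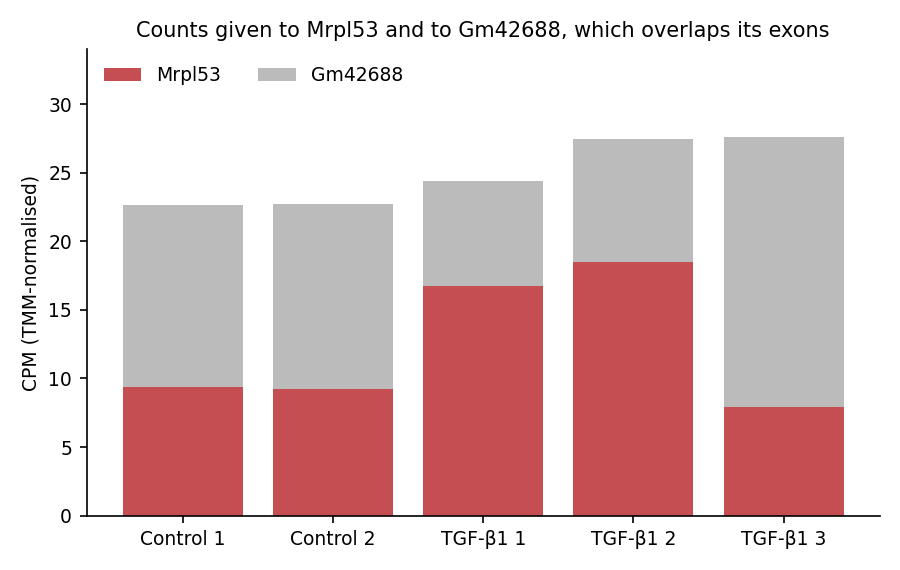
TMM-scaled CPM (vertical axis) counted for Mrpl53 (red) and Gm42688 (grey), stacked, in each library (horizontal axis). The red part is large in TGF-β1 libraries 1 and 2 (16.8 and 18.5 CPM) and small in library 3 (7.91 CPM), while the whole bar stays between 22.7 and 27.6 CPM.

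The 2 subunits had similar values, and the sign of the difference between them depended on the libraries and members used. The median log2 fold change was 0.12 for the large and 0.14 for the small subunit, and the share called higher was 30.6% and 27.6%. With subunits assigned by structure (Mrps18a and Mrps30 as large, Mrps36 left out, and the 5 proteins with other symbols added), the shares were 28.8% and 30.0%. Summed CPM of the large subunit was 1088 and 1091 in controls and 1228, 1204 and 1158 with TGF-β1, and that of the small subunit 548 and 567 in controls and 626, 608 and 616 with TGF-β1. On this scale every TGF-β1 library was above both controls in both subunits. The ratio of the group means was 1.098 for the large and 1.106 for the small subunit. Without the TMM factors the groups overlapped in the large subunit and nearly met in the small, so the separation of the sums depended on the scaling. As a share of all counts the large subunit took 0.113% and 0.114% in controls and 0.119%, 0.117% and 0.113% with TGF-β1 (ratio 1.025), library 3 being the lowest of all. The small subunit took 0.0570% and 0.0592% in controls and 0.0608%, 0.0592% and 0.0599% with TGF-β1 (ratio 1.032). The ratio of large to small was 1.95 ± 0.042 (SD, n = 2) in controls and 1.94 ± 0.053 (SD, n = 3) with TGF-β1, and the libraries overlapped (1.98 and 1.92, against 1.96, 1.98 and 1.88). The large median minus the small median was -0.016 in the fit, and per TGF-β1 library it was -0.043, 0.0022 and -0.094 against the control mean. It was 0.059 without control 1, -0.029 with subunits by structure, and 0.017 over members with no exon overlap or copy. TGF-β1 library 3 was the lowest of the 3 TGF-β1 libraries in 35 members and library 1 the highest in 40.

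**Figure D5:**
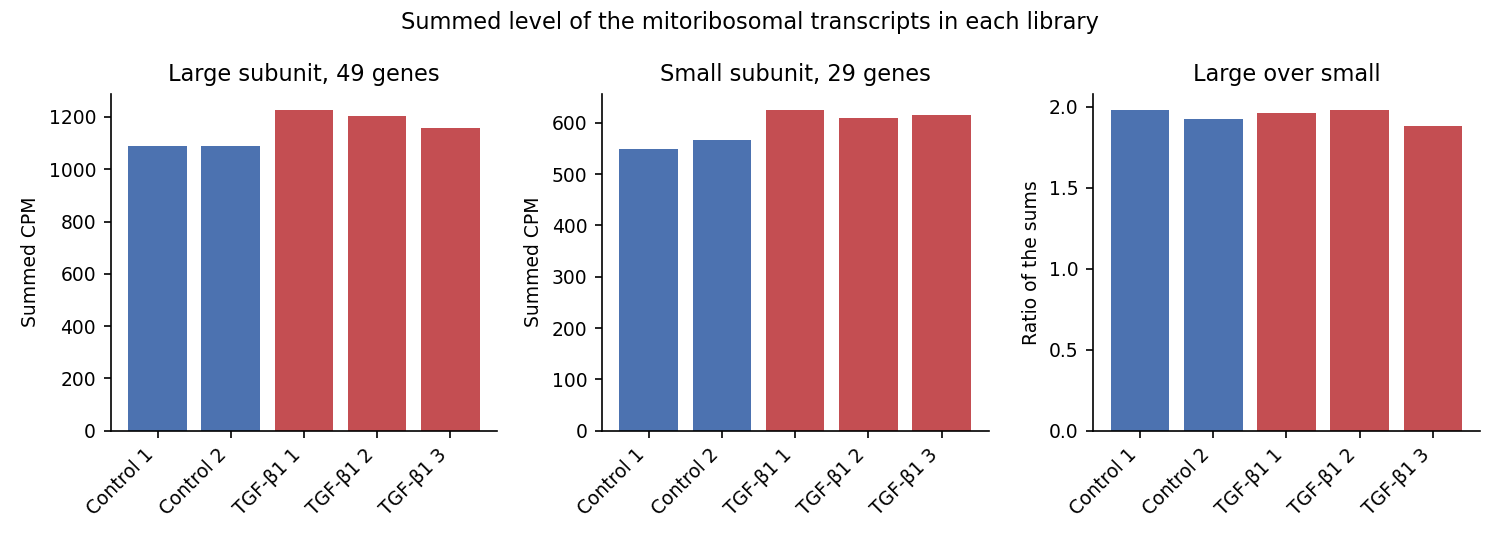
Summed TMM-scaled CPM (vertical axes, from 0) of the 49 large subunit genes (left) and the 29 small subunit genes (middle) and their ratio (right) in each library, controls in blue and TGF-β1 in red. With TMM scaling both sums are higher in each TGF-β1 library than in each control, and the ratio overlaps between groups at 1.88 to 1.98.

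Of 48 members with a bacterial homologue 17 were higher (median log2 fold change 0.14), and of 30 without one 6 were higher (median 0.12). Exon overlap with a gene counted at over 0.1 of the member's level affected 21 members, a near-identical copy 21, and either 37. The 34 members with no near-identical copy and no exon overlap with any other counted gene had 11 higher (32.4%), 0 lower and a median of 0.13. Of the 19 higher members with a promoter in the table, 3 held the NRF1-like, 6 the ETS, 1 the YY1-like and 3 the E-box motif, and of the 50 others 10, 20, 7 and 2 did. A motif match is a description of these letters only.

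Members often start close to another gene on the opposite strand. For 31 of 78 (39.7%) the start of another tested protein-coding gene lay within 1000 bp on the opposite strand, compared with 14.2% of tested protein-coding genes. The genes of 18 of these pairs point away from each other without overlapping, and those of 13 overlap at their starts. Of these 31 partners 9 were higher, 8 lower and 14 did not pass. This is near the shares over all tested protein-coding genes, 23.4% higher and 26.25% lower. Examples chosen after their values were seen show that partners could have quite different values. Mrpl51 (log2 fold change -0.032, not passed) has its start 100 bp from that of Ncapd2, a condensin subunit, which fell by 0.70 on the log2 scale (edgeR adjusted p = 3.77e-05). Mrpl57 (0.22, not passed) lies 49 bp from Ska3, a kinetochore gene, which fell by 0.80 (edgeR adjusted p = 0.00641). Mrpl32 (0.32) and its partner Psma2, a proteasome subunit 75 bp away, were both higher (0.25 for Psma2, edgeR adjusted p = 0.00122). Mrps11 and Mrpl46, whose starts are 412 bp from each other and which overlap, are each other's partner and neither passed (0.19 and 0.020).

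Levels per kb of exon spread widely over the members. The mean of each member over all libraries lay between 8.08 and 46.9 CPM, and CPM per kb of exon ran from 1.22 to 40.4 with a median of 8.85. Per kb uses all annotated exons of a gene, so a gene with a long alternative exon has a low value. In the large subunit the highest per kb were Mrpl52 (40.4 CPM per kb), Mrpl34 (32.7) and Mrpl10 (26.6), and the lowest Mrpl1 (2.42), Mrpl23 (2.76) and Mrpl48 (2.85). In the small subunit the highest were, in order, Mrps21 (34.4), Mrps12 and Mrps23 (19.3), and the lowest Mrps35 (1.22), Mrps10 (2.86) and Mrps22 (2.97). The annotated exons of Mrps35 span 8631 bp and those of Mrpl52 1109 bp.

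Several of these members with the highest or lowest values per kb did not pass the test. Mrpl10, at the base of the stalk that carries Mrpl12, was at 43.8 and 47.1 CPM in controls and 46.7, 46.1 and 43.3 CPM with TGF-β1 (log2 fold change -0.0034, SE 0.058, edgeR adjusted p = 0.969). Mrpl34 was at 18.3 and 19.2 CPM and 21.6, 20.6 and 19.5 CPM (log2 fold change 0.13, SE 0.077, edgeR adjusted p = 0.193). Groups overlapped for Mrpl10, whereas every TGF-β1 library was above the controls for Mrpl34. Mrpl1, Mrpl23 and Mrpl48 had log2 fold changes of 0.063 (SE 0.12), 0.17 (SE 0.092) and -0.11 (SE 0.078). Mrpl23 has a pseudogene identical over 540 bp, with a mean of 130.0 counts against 536, and Mrpl48 has a copy and overlaps Rab6a. Mrps12, of the decoding centre, was at 22.4 and 20.9 CPM and 20.5, 22.2 and 23.2 CPM, with overlap (log2 fold change 0.021, SE 0.078, edgeR adjusted p = 0.851). Mrps21 was at 23.3 and 24.8 CPM and 25.9, 25.3 and 27.7 CPM, without overlap (log2 fold change 0.13, SE 0.070, edgeR adjusted p = 0.175). Mrps23 was at 26.2 and 28.0 CPM and 30.1, 34.1 and 31.98 CPM and passed, without overlap (log2 fold change 0.24, SE 0.072, edgeR adjusted p = 0.0227). Mrps35 and Mrps22 had log2 fold changes of 0.056 (SE 0.13) and 0.27 (SE 0.10), and Mrps22 was called higher with limma-voom and without control 1.

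Of the 5 mitoribosomal proteins with other symbols 1 was higher and 0 lower, where 21.3% of all genes were called higher. Ptcd3, a pentatricopeptide protein of the small subunit, was at 33.8 and 38.3 CPM in controls and 46.6, 46.2 and 46.2 CPM with TGF-β1. Its TGF-β1 libraries were nearly equal and above both controls (log2 fold change 0.36, SE 0.062, edgeR adjusted p = 0.0012). Gadd45gip1, of the large subunit, had a log2 fold change of 0.19 (SE 0.076) and the small subunit proteins Dap3, Chchd1 and Aurkaip1 had 0.17 (SE 0.066), 0.050 (SE 0.10) and 0.043 (SE 0.058); these 4 did not pass. The counts of Gadd45gip1 and Dap3 are uncertain, since both share exon sequence with other counted genes.

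Genes that build and serve the mitoribosome were described by lists, to be read against the 21.3% of all genes called higher. Of 28 assembly factors 5 were higher (17.9%, below that share) and 0 lower (median log2 fold change 0.12), with the largest rises in the rRNA methyltransferase Nsun4 (0.43, SE 0.094), the GTPase Noa1 (0.34, SE 0.10) and the pseudouridine synthase Trub2 (0.29, SE 0.086), whose exons overlap Coq4. Of 14 tested translation factors 2 were higher (14.3%, also below it) and 0 lower (median 0.032), the elongation factors Gfm1 (0.27, SE 0.069, and 0.17 without control 1, where the call is lost; exons overlap Lxn) and Tufm (0.20, SE 0.048). The list of RNA handling, import and quality control had 7 of 15 higher (46.7%) and 0 lower (median 0.22). Its median SE was 0.053, against 0.0996 over all genes and 0.11 for the assembly factors, so smaller changes could pass in it. Its largest rises, in the matrix protease Lonp1 (0.68, SE 0.051) and the chaperones Hspd1 (0.56, SE 0.035) and Hspa9 (0.56, SE 0.028), exceeded in fitted value those of all called members. Hspd1 has a pseudogene with a mean of 394.6 counts against 10650.

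Of the 14 tested regulators of mitochondrial transcription and biogenesis 4 were higher (28.6%) and 1 lower (median 0.11). Myc, which encodes a transcription factor of growth genes, was at 30.4 and 30.6 CPM in controls and 60.0, 61.2 and 35.9 CPM with TGF-β1. Libraries 1 and 2 were far above the controls and library 3 slightly above them (log2 fold change 0.78, SE 0.19, edgeR adjusted p = 0.00923), and over the alternatives its adjusted p reached 0.0788. Gabpb1, a GABP subunit, was higher (0.39, SE 0.060), as were the coactivator Pprc1 (0.35, SE 0.070; exons overlap Ldb1) and Tfb2m (0.30, SE 0.064; near-identical pseudogene), while Mtor fell by 0.22 (SE 0.044). Of the 15 mitochondrially encoded mRNAs and rRNAs 7 were higher (46.7%) and 0 lower (median 0.11), led by the complex I subunits mt-Nd2 (0.25, SE 0.024), mt-Nd1 (0.22, SE 0.035) and mt-Nd6 (0.20, SE 0.041). The median SE of this list was 0.035, against 0.0996 for all genes, so smaller changes could pass in it. mt-Nd6 overlaps mt-Nd5 on the opposite strand. Among those called higher, mt-Nd4l and mt-Co2 have identical pseudogene copies with about as many counts as themselves (8941 against 8933 for mt-Nd4l), and mt-Nd4 has an identical copy with 30330 counts against 69062, so these are uncertain. So are mt-Atp6, mt-Co3 and mt-Nd3, which did not pass and also have copies with about as many counts.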

How the data were processed

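The deposited file is a gene table of raw counts, unscaled, for the 5 libraries. RNAiso Plus was used for RNA and a VAHTS stranded kit for polyA libraries, per the labels. The submitters' processing notes name STAR 2.5.3a, StringTie 1.3.1c and mm10. Which tool counted, with which strand setting and annotation release, is not given in the sources used here. Per the titles, columns were assigned to 2 control and 3 TGF-β1 libraries. Of 55335 gene IDs, 55154 matched GENCODE M21 (GRCm38); coordinates are 1-based.

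Genes were filtered with filterByExpr, scaled with TMM and tested with edgeR 4.0.16 (quasi-likelihood F test, group only, two-sided, Benjamini-Hochberg over 16380 genes, threshold 0.05, R 4.3.3). The SE is the absolute log2 fold change over the square root of F. The common biological coefficient of variation, a summary over all genes, was 0.0765. The quasi-likelihood fit also gives each gene a dispersion of its own. Alternatives were other scalings and filters, limma-voom 3.58.1, DESeq2 1.42.0, a replicate block and leaving out each library. Leaving out a control leaves 1, whose spread is then taken from the TGF-β1 libraries. Near-identical copies were coding genes or pseudogenes matching at 95% identity or more over at least 100 bp and 0.5 of the shorter transcript.

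The members and lists were chosen with earlier results of these data known. The rule named, per subunit, up to 6 largest rises and falls past the threshold and the 3 highest and 3 lowest by CPM per kb, then Mrps18a, Mrps18b, Mrps18c, Mrps30, Mrps36, the 5 proteins with other symbols and up to 3 rises and 3 falls per list. Other names were chosen after seeing values. Bacterial homologues were assigned from background knowledge. Of 15 listed translation factors Mtrfr was not matched, and of 15 regulators 1 did not pass the filter.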

Additional observations from a re-analysis of the deposited data

How the results depend on the processing

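Median-of-ratios and upper-quartile scaling, a filter of 1 CPM in 2 libraries, limma-voom and DESeq2 gave 12 to 16 large and 6 to 9 small subunit members higher and 0 lower, near the 15 and 8 reported. With library totals 4 large and 2 small members were higher and 2 large and 2 small lower, and with no filter 9 and 4 were higher. Leaving out 1 library gave 5 to 14 large and 3 to 7 small members higher, 0 large and 0 to 1 small lower. The labels do not say that the replicate numbers pair the libraries. Correlations of same-numbered deviations from the group mean were 0.0159 and 0.0161. With 2 controls these deviations mirror each other, so both values rest on the same control contrast and cannot decide whether libraries were paired. With the replicate block 14 large and 7 small members were higher and 1 small lower, and TGF-β1 library 3 then has a level of its own. The large minus small median was -0.0158 and ranged from -0.0496 to 0.0587 when 1 library was left out. Among named genes that did not pass, values near 0 changed sign. With library totals Mrpl1 was at -0.0359, Mrps35 -0.044, Mrps12 -0.0779, Mrps30 -0.0033, Mrps36 -0.046, Chchd1 -0.0493 and Aurkaip1 -0.0566. With the block Mrpl10 was at 0.0294 and Mrps12 at -0.0182, and with the 1 CPM filter Mrpl10 was at 0.0001. Leaving out 1 library moved Mrpl1 from -0.0179 to 0.1513, Mrpl10 from -0.0528 to 0.0516, Mrps35 from -0.0645 to 0.1275, Mrps12 from -0.0247 to 0.0739, Mrps36 from -0.018 to 0.1097 and Chchd1 from -0.031 to 0.1032. The cause was not tested. Over the other single-gene values 553 kept their direction and side of the threshold, 52 lost and 15 gained the call.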
